A study of Mus musculus with 2 samples.

Results

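The 10 genes described here are 7 matrix metalloproteinases, Mmp2, Mmp3, Mmp9, Mmp10, Mmp12, Mmp13 and Mmp14, and 3 of their tissue inhibitors, Timp1, Timp2 and Timp3. They were chosen by symbol from the 55450 genes of the count matrices. They were followed through the cells of EMT6 tumors, grown subcutaneously from 200000 injected cells in young, immunocompetent female BALB/c mice. EMT6 is a mouse mammary carcinoma line used as a model of triple-negative breast cancer. The Olaparib + LLY-283 library came from mice given the PARP inhibitor Olaparib at 50 mg/kg together with LLY-283, an inhibitor of PRMT5, also at 50 mg/kg in cycles of 3 treated and 4 untreated days. The Combo library came from mice given the same drugs and an antibody against PD-1 (200 µg every 3 days). Each library was made from the tumors of 3 mice pooled, so there was 1 library per treatment and no replicate. Library, mouse pool and treatment cannot be told apart, no test between treatments was possible, and every interval below is a 95% interval for counting error only.

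Matrix metalloproteinases are zinc-dependent proteases that cut collagens, elastin, proteoglycans and other parts of the extracellular matrix, and that release or inactivate growth factors and chemokines. Most are secreted as inactive proenzymes and are opened by other proteases. Mmp14 is held in the plasma membrane, where it activates pro-Mmp2 with Timp2 as an adaptor. The tissue inhibitors bind the active site of the proteases, and Timp3, unlike the others, stays bound to the matrix. In tumors the proteases are known to come as much from stromal and myeloid cells as from carcinoma cells. A transcript level says nothing of proenzyme activation.

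The members lie on 7 chromosomes of mm10 and all are protein-coding. Mmp13 (7272514-7283331), Mmp12 (7344381-7369499), Mmp3 (7445822-7455975) and Mmp10 (7502352-7510240) lie on the plus strand of chromosome 9, in a cluster of 10 metalloproteinase genes that also holds Mmp8. Mmp2 lies on chromosome 8, Mmp9 on chromosome 2, Mmp14 on chromosome 14, Timp1 on chromosome X, Timp2 on chromosome 11 and Timp3 on chromosome 10. Mmp12 overlaps Mmp1b, and Timp1 lies within Syn1 on the other strand. Mmp1b had 1 UMI in named cells.

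The promoters of the 4 clustered members are shown because these neighbours were not all highest in the same cells. Mmp12 and Mmp13, however, were both found in macrophages. Each is the 250 bases before the transcription start, from RefSeq (GRCm38.p6, plus strand), and capitals mark the AP-1 word TGANTCA, which reads the same on both strands.
Mmp13, chr9:7272264-7272513: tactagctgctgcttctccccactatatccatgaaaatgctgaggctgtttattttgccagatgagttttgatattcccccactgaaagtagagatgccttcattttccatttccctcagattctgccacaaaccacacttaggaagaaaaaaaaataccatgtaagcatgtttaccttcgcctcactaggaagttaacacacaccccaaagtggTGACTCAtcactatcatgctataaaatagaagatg
Mmp12, chr9:7344147-7344396: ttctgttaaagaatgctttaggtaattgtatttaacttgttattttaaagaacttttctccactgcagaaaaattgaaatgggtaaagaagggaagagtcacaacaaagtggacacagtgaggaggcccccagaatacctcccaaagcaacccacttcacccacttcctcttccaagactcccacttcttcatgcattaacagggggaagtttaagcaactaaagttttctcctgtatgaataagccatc
Mmp3, chr9:7445572-7445821: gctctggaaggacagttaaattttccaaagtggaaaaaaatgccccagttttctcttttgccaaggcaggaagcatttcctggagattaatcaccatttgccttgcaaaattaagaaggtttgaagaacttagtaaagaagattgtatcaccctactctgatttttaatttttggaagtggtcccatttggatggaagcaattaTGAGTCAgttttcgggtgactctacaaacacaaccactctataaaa
Mmp10, chr9:7502092-7502341: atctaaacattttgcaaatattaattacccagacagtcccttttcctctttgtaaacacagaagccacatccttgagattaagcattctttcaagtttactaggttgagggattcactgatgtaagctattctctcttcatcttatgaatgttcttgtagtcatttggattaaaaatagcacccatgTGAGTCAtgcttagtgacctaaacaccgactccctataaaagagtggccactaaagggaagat
The word began 35 bases before the start in Mmp13, 46 in Mmp3 and 63 in Mmp10. It was not in the windows used for Mmp12, Mmp14, Timp1, Timp2 or Timp3. Mmp12 had 2 entries, and only the window shown above is described. The RefSeq start of Timp2 lay 329 bases from its start in the GENCODE annotation. No window was available for Mmp2 or Mmp9. Of 32851 promoter windows of this length, 2217 (6.75%) held it. A match is a description of these letters only.

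The Olaparib + LLY-283 library held 16115 cell barcodes and the Combo library 7542, with 39 barcodes shared. After filters on mitochondrial UMIs and doublets, 13665 and 5831 cells were clustered without the members or their listed relatives. The mitochondrial filter fell unevenly, with 86 barcodes left out under Olaparib + LLY-283 against 1586 under Combo. The libraries are therefore compared after unequal losses. Classes were named by markers, such as Krt8 and Krt18 for tumor-like cells. The tumor-like class held 10721 and 2638 cells, the macrophage-like class 564 and 590, the neutrophil-like class 596 and 981, and the cancer-associated fibroblast-like (CAF-like) class 186 and 63. The osteoclast-like class held 41 and 26 cells, and the endothelial-like class 19 and 8. Depth differed strongly, with a median of 8614 UMIs per tumor-like cell against 49317.5 in Combo, and of 638 against 1984 per neutrophil-like cell. Levels are therefore UMIs per 1000000 UMIs of the class (CPM), and shares of cells with a UMI were taken after each cell was thinned to 1000 UMIs.

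Free RNA can put some UMIs of an abundant gene into droplets of other cells. The T/NK-like cells were taken as a rough gauge, though their own transcription of the members was not tested. In them the thinned share was 11.3% and 8.98% for Timp2, 6.33% and 4.31% for Timp1, and 6.83% and 0.640% for Mmp14 (Olaparib + LLY-283 and Combo, 28 and 58 cells). It was 2.95% and 0.667% for Mmp2 and 1.11% and 1.14% for Mmp9. The gauge rests on few counts, as the whole class held 4 and 2 UMIs of Mmp14, 1 and 2 of Mmp2 and 1 and 8 of Mmp9. Krt8 in T/NK-like cells also differed between the libraries, at 0.296 and 0.146 of its tumor-like level. Mmp3, Mmp10, Mmp12 and Timp3 had no UMI there. Krt8, a tumor-like marker, stood in macrophage-like cells at 0.183 and 0.120 of its tumor-like level, and in CAF-like cells at 0.25 and 0.292. In neutrophil-like cells it stood higher in the Olaparib + LLY-283 library, at 0.442, than in Combo, at 0.247. The part of free RNA in each result below was not tested beyond these values.

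The members divided between the classes in the same way in both libraries for 7 of the 10. Mmp2, Mmp3, Timp1 and Timp3 were highest in CAF-like cells, Mmp9 and Mmp14 in osteoclast-like cells and Mmp12 in macrophage-like cells, among classes of at least 20 cells. Mmp10, Mmp13 and Timp2 had another leading class in each library, with overlapping intervals between the first and second class for Mmp10 and Mmp13 in both. With the libraries together and small classes included, the leading class by CPM also led by thinned share for 7 members. The leading classes in that count are not all those just named. Endothelial-like cells, then included, stood above osteoclast-like cells for Mmp14 and above CAF-like cells for Timp3.

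**Figure D1:**
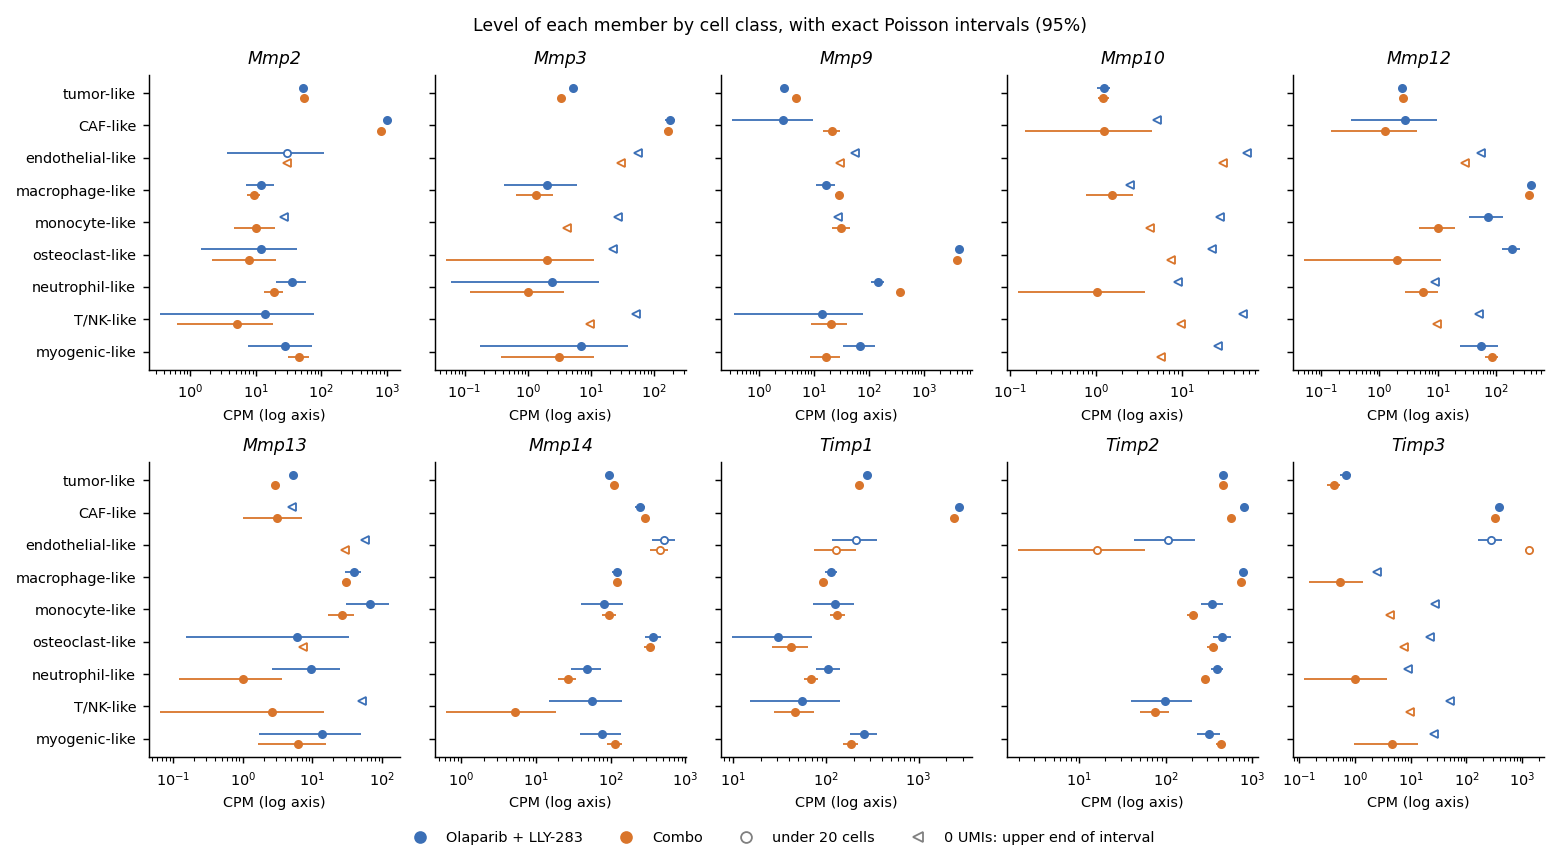
Level of each member in CPM (log axis) in 9 cell classes, with exact Poisson intervals; blue is Olaparib + LLY-283 and orange Combo, open circles are classes under 20 cells and triangles mark the upper end of the interval where no UMI was counted. Mmp9 stood at 4412 and 4048 CPM in osteoclast-like cells, and Timp1 at 2743 and 2405 CPM in CAF-like cells, in each case above every other class of that library.

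The gelatinases Mmp2 and Mmp9, which cut denatured collagen and basement membrane collagen, were highest in different cells. Mmp2 stood at 1010 CPM (939 to 1086) in CAF-like cells under Olaparib + LLY-283 and at 814 CPM (771 to 859) under Combo. Its level in tumor-like cells was 52.5 CPM (51.1 to 53.8) and 54.6 CPM (53.3 to 55.8), so that CAF-like cells were 19.3-fold and 14.9-fold higher. After thinning, 61.9% and 55.6% of CAF-like cells held Mmp2 against 5.56% and 5.52% of tumor-like cells. In the remaining classes Mmp2 ranged from 0 to 46.4 CPM.

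Mmp9 was concentrated in few cells. It stood at 4412 CPM (4098 to 4743) in the 41 osteoclast-like cells and at 4048 CPM (3873 to 4229) in the 26 of Combo, with a UMI in 38 and 25 of these cells. The thinned share was 72.9% (56.7 to 87.5) and 69.0% (48.9 to 87.4). The 5 cells richest in Mmp9 held 54.3% and 69.8% of those UMIs, and a single Combo cell held 558 of 2004. These few cells carried 63.6% and 54.4% of all Mmp9 UMIs in named cells. Neutrophil-like cells followed at 145 CPM (111 to 187) and 376 CPM (350 to 405), apart from the next class in Combo and overlapping myogenic-like cells in the other library. Tumor-like cells were at 2.87 and 4.85 CPM.

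The stromelysins Mmp3 and Mmp10, which cut proteoglycans and activate other proenzymes, were detected in few cells. Mmp3 stood at 179 CPM (150 to 213) and 163 CPM (144 to 184) in CAF-like cells, and at 5.10 CPM (4.69 to 5.54) and 3.38 CPM (3.07 to 3.70) in tumor-like cells. It was found in a minority of CAF-like cells, 12.1% (7.87 to 18.0) and 11.2% (4.91 to 22.9) after thinning, and 5 cells held 45.0% and 58.1% of its UMIs there. Mmp10 was at 1.21 CPM in tumor-like cells of both libraries, in 109 and 77 cells. Its lead in Combo macrophage-like cells, 1.5 CPM, rested on 11 UMIs in 3 cells and overlapped the tumor-like interval.

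Mmp12, the macrophage elastase, was at 402 CPM (370 to 436) and 367 CPM (353 to 381) in macrophage-like cells against 2.43 and 2.55 CPM in tumor-like cells. It was a gene of few macrophages, with a thinned share of 11.8% (9.13 to 14.9) and 12.1% (9.62 to 15.1), and 5 cells held 33.3% and 31.4% of its UMIs. Osteoclast-like cells held 31 UMIs in 3 cells in the Olaparib + LLY-283 library and 1 UMI in Combo. Mmp13, the collagenase that cuts fibrillar collagen, was at 39.1 CPM (29.7 to 50.5) and 30.3 CPM (26.4 to 34.5) in macrophage-like cells. Monocyte-like cells held Mmp13 at 66.2 CPM (30.2 to 126) and 26.3 CPM (16.7 to 39.5), from 9 and 23 UMIs. CAF-like cells held 0 and 5 UMIs of Mmp13.

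Mmp14, the membrane-type activator, had UMIs in every class drawn. It stood at 373 CPM (286 to 478) and 331 CPM (282 to 386) in osteoclast-like cells and at 245 CPM (210 to 284) and 285 CPM (260 to 312) in CAF-like cells, which did not differ beyond counting error in Combo. Macrophage-like cells were at 121 and 122 CPM and tumor-like cells at 96.2 and 109 CPM. The small endothelial-like class was higher still, at 519 CPM (359 to 725) in 19 cells and 451 CPM (341 to 586) in 8. T/NK-like cells held 4 and 2 UMIs of Mmp14.

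The inhibitors differed from each other in breadth. Timp1 stood at 2743 CPM (2624 to 2866) and 2405 CPM (2330 to 2481) in CAF-like cells, 9.90-fold and 10.6-fold above tumor-like cells at 277 CPM (274 to 280) and 226 CPM (224 to 229). Timp2 was found broadly, with 806 CPM (743 to 874) and 566 CPM (530 to 603) in CAF-like cells, 785 CPM (741 to 832) and 746 CPM (726 to 766) in macrophage-like cells, and 457 and 467 CPM in tumor-like cells. Timp3 was concentrated, at 386 CPM (342 to 434) and 331 CPM (304 to 360) in CAF-like cells and 0.687 and 0.423 CPM in tumor-like cells. The small endothelial-like class was at 275 CPM (163 to 434) in 19 cells, overlapping CAF-like cells, and at 1337 CPM (1141 to 1556) in 8 cells of Combo, above CAF-like cells, from 166 UMIs in 5 cells. In CAF-like cells of Combo, 5 cells held 67.9% of the Timp3 UMIs.

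The class with the highest level did not always hold most of the UMIs. Over all genes, the tumor-like class held 112040349 of 118657854 clustered UMIs in Olaparib + LLY-283 and 134747519 of 155894353 in Combo, named cells or not. These totals include 1972639 and 4865573 UMIs of unnamed cells and 1419572 and 2708124 of low-UMI cells, which the member shares below leave out. The tumor-like share of named-cell UMIs over all genes is thus higher than these totals give. A high tumor-like share therefore does not by itself set a member apart. Tumor-like cells held over 50% of the named-cell UMIs in both libraries for 7 of the 10 members, a count not made for all genes. The share was 88.3% and 83.3% for Mmp2, 93.1% and 85.8% for Timp1, and 96.1% and 89.2% for Timp2. The exceptions were Mmp9 (27.9% and 17.7%), Mmp12 (29.6% and 11.0%) and Timp3 (20.4% and 7.39%). For Mmp12, 64.9% and 86.4% lay in macrophage-like cells, and for Timp3, 74.8% and 69.9% in CAF-like cells. Most of the other Timp3 UMIs in named cells of Combo lay in endothelial-like cells. Named cells held 39.0% and 92.5% of all Mmp12 UMIs and 56.9% and 97.1% of all Timp3 UMIs. A cluster without a name, led by Fabp5, Arg1 and Il7r, held 702 and 79 Mmp12 UMIs outside these shares. The part of naming in the differences between the libraries was not tested.

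**Figure D2:**
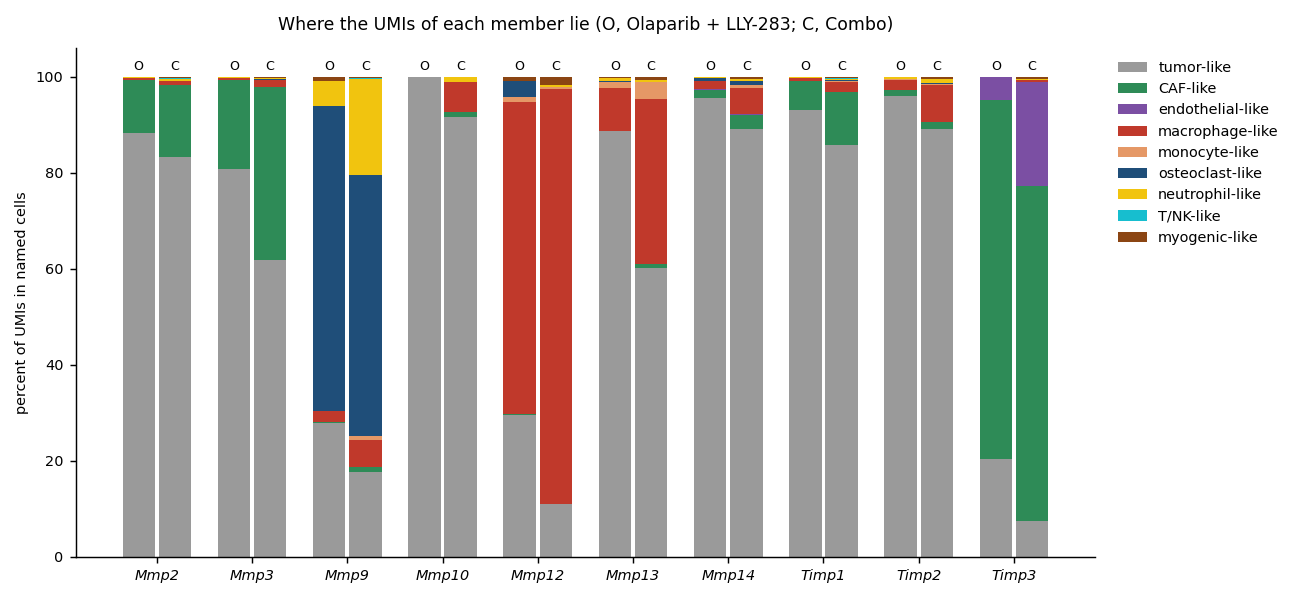
Percent of each member's UMIs in named cells by class, for Olaparib + LLY-283 (O) and Combo (C); DC-like cells are not drawn. Grey is tumor-like, which held 27.9% and 17.7% for Mmp9, 29.6% and 11.0% for Mmp12 and 20.4% and 7.39% for Timp3.

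Between the libraries most members stayed close within a class. A gene was called where its CPM ratio passed 2-fold and its UMIs, summed over the libraries, reached 100. In tumor-like cells 0 of 10 members were called, beside 2.04% of 13635 genes, and the members' median log2 ratio was 0.01 against 0.07 for all genes. In macrophage-like cells 0 of 6 were called (0.79% of 7591 genes), in CAF-like cells 0 of 6 (1.9% of 3574 genes), in osteoclast-like cells 0 of 3 (2.57% of 974 genes), and in neutrophil-like cells 1 of 3 (11.7% of 2795 genes). The lowest ratios in tumor-like cells were those of Mmp13 (log2 -0.86, -1.05 to -0.67), Timp3 (-0.70, -1.22 to -0.19) and Mmp3 (-0.60, -0.78 to -0.42). The highest was that of Mmp9 (0.75, 0.56 to 0.95), which was higher in Combo in 10 of 10 tumor-like clusters, with 4 intervals clear of 0. Without the 5 richest cells of each library it fell below 0 only in the clusters led by Cdkn3 (-0.14) and by Klk10 and Mt1 (-1.75). Mmp14 followed (0.19, 0.15 to 0.22), higher in 9 of 10, with 7 intervals clear of 0. Timp2, at a log2 of 0.03 over the class, also had 7 intervals clear of 0, with 6 clusters lower in Combo and 4 higher. Mmp3 was lower in Combo in 9 of 10 clusters and Mmp13 in 8 of 10. Such counts were not made for all genes, so they do not by themselves mark a shift. The clusters share the same libraries and are not replicates. Over all barcodes Mmp9 was at 10.4 and 26.7 CPM, and the part of free RNA in its tumor-like ratio was not tested. For Mmp3, 5 cells held 13.5% and 38.2% of its tumor-like UMIs. Timp1 was lower in Combo in tumor-like cells by a log2 of -0.29 (-0.32 to -0.27) and in thinned share by -4.16 percentage points (-5.84 to -2.40), and it was lower in 10 of 10 tumor-like clusters. In CAF-like cells the log2 ratios of Mmp2, Mmp3, Timp1 and Timp3 were -0.31, -0.14, -0.19 and -0.22, and with doublets kept they turned to 0.87, 0.36, 0.61 and 0.86, so no direction is given for them.

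The called member was Mmp9 in neutrophil-like cells, where 9.8% of all genes were called higher in Combo and 1.86% lower. Its log2 ratio was 1.36 (0.99 to 1.78), from 60 UMIs in 596 cells and 738 UMIs in 981 cells. The class held 412990 and 1960330 UMIs, so most UMIs counted toward the minimum came from Combo. Mmp9 would not have reached the minimum of 100 UMIs from the Olaparib + LLY-283 library alone. The thinned share was 19.7% (7.45 to 37.5) of only 31 cells and 27.8% (24.8 to 30.9) of 867, a difference of 8.01 points whose interval, -9.20 to 18.7, included 0. Different clusters held the class in each library. In the cluster led by Retnlg, Stfa2 and S100a9, with 238 and 73 cells, Mmp9 was at 272 and 177 CPM. In the cluster led by Stfa2 and Ccl3, with 320 and 77 cells, it was at 40.5 and 116 CPM, and both intervals of the ratio included 0. The clusters mostly of Combo cells were at 406 CPM (452 cells), 477 CPM (258 cells) and 187 CPM (121 cells). A further cluster of mostly Combo cells, led by Hcar2 and Ccl3 with 32 and 440 cells, had 8 of 8 neutrophil-like markers over 2-fold. It received no name, since its depth was low and none of these markers was among its 10 leading genes. Named clusters of the class were also of low depth. The unnamed cluster held Mmp9 at 106.3 and 108.6 CPM (log2 -0.18, -1.56 to 2.34). With the clusters that lost their name by this rule counted in the class their markers scored highest, the Mmp9 ratio was 1.06.

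**Figure D3:**
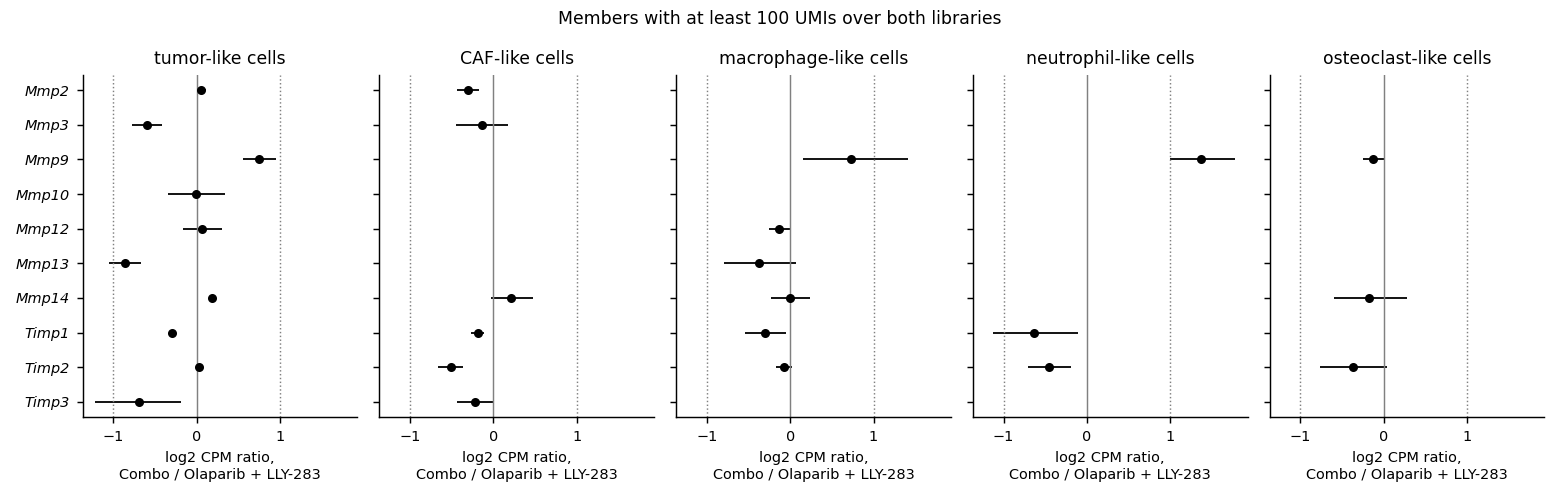
Log2 ratio of CPM, Combo over Olaparib + LLY-283, with exact conditional intervals, for members past the minimum of 100 UMIs, in 5 classes; dotted lines mark 2-fold. Only Mmp9 in neutrophil-like cells, at 1.36, lay past 2-fold.

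In the main setting, the macrophage-like total of Mmp12 was close between the libraries among named cells while its clusters differed, 4 of 5 being lower in Combo and 1 higher. The log2 ratio over the whole class was -0.13 (-0.26 to -0.0016). Mmp12 was highest in the cluster led by Arg1 and Rgs1, at 1318 and 821 CPM, with 54 cells from Olaparib + LLY-283 and 287 from Combo. There the log2 ratio turned from -0.69 to 0.60 without the 5 richest cells of each library. The other clusters lower in Combo, given next, stayed below 0 without theirs. In the cluster led by Gatm and C1q genes, with 231 and 85 cells, Mmp12 was at 488 and 52.3 CPM, a log2 ratio of -3.21 (-3.66 to -2.81). It was also lower in Combo in the Lyve1 and Cd163 cluster (72.1 and 17.1 CPM) and in the cluster led by class II genes (230 and 101 CPM). The last had 9 of 9 macrophage-like markers over 2-fold, but none among its 10 leading genes and DC-like as its second class, so its name is doubtful. The cluster led by Ccl12 and Gatm went the other way, at 51.8 and 200 CPM, on 1 and 3 cells. A cluster without a name, led by Fabp5, Arg1 and Il7r with 394 and 56 cells, held Mmp12 at 1091 and 409 CPM and is outside the class totals. With the clusters of low depth counted by their markers, the ratio of Mmp12 was -0.73. Of all Mmp12 UMIs in the matrices, 39.0% and 92.5% lay in named cells, and the part of the unnamed and removed cells in the ratios was not tested.

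Mmp13 was found in a larger share of the macrophages that held Mmp12. In the Arg1 cluster Mmp13 was at 207 and 62.8 CPM, from 33 UMIs in 6 cells and 181 UMIs in 33 cells. Its log2 ratio there turned from -1.74 to 0.68 without the 5 richest cells of each library. Among thinned macrophage-like cells, Mmp13 was in 7 of 58 cells with Mmp12 (12.1%, 4.99 to 23.3) and in 4 of 450 without it (0.889%, 0.243 to 2.26) in the Olaparib + LLY-283 library. In Combo it was in 9 of 62 (14.5%, 6.86 to 25.8) and in 4 of 522 (0.766%, 0.209 to 1.95). Mmp9 was in 0 of 58 and 0 of 62 of the cells with Mmp12, with upper limits of 6.16% and 5.78%. Among cells without Mmp12, Mmp9 was in 4 of 450 (0.889%) and 13 of 522 (2.49%). These shares lie below those limits, so the counts of 0 do not tell the 2 groups of cells apart.

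Timp2 was highest in another macrophage cluster. It was at 1659 and 1808 CPM in the Lyve1 and Cd163 cluster, above the Arg1 cluster (377 and 386 CPM) and the Gatm cluster (711 and 523 CPM). Among CAF-like cells, Timp1 was at 7127 CPM in the 34 cells led by Crabp1 and Tnc against 1790 CPM in the 152 led by Dpt and Clec3b. The same clusters stood at 5289.5 CPM (17 cells) and 1442 CPM (46 cells) in Combo. Timp3 went from 412 to 170 CPM between the libraries in the Dpt cluster (log2 -1.28, -1.55 to -1.01), while the few Crabp1 cells were at 268 and 815 CPM. Over the whole CAF-like class the Timp3 ratio turned from -0.22 to 0.86 with doublets kept, so no direction is given here either.

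**Figure D4:**
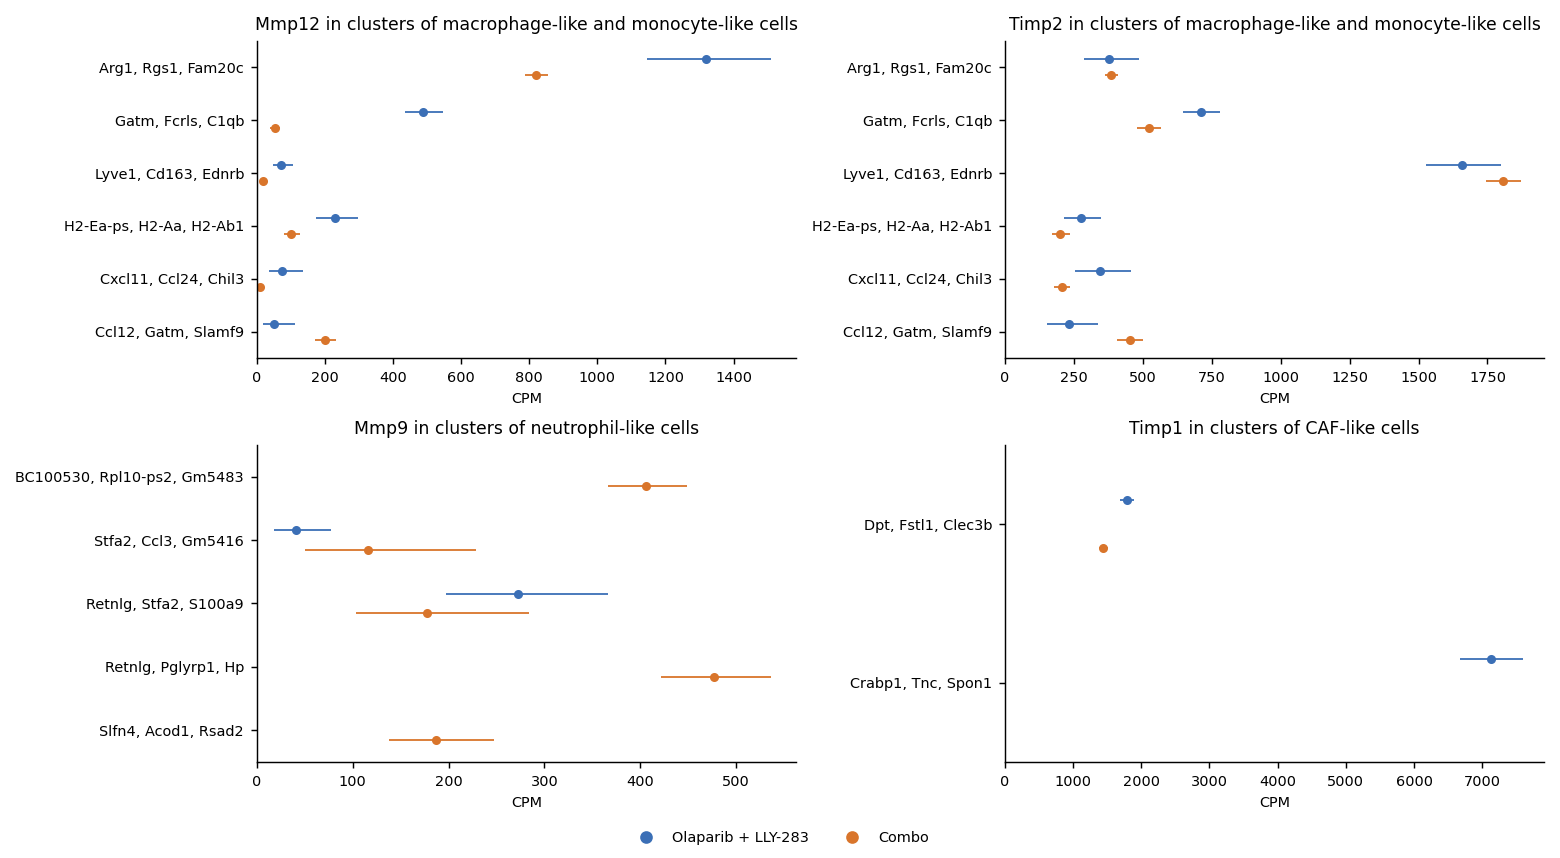
CPM with exact Poisson intervals of Mmp12 and Timp2 in clusters of macrophage-like and monocyte-like cells, Mmp9 in neutrophil-like and Timp1 in CAF-like clusters, each named by its leading genes and drawn where a library had at least 20 cells. Mmp12 led in the Arg1 cluster (1318 and 821 CPM) and Timp2 in the Lyve1 cluster (1659 and 1808 CPM).

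Tumor-like clusters also differed. Mmp13 was at 17.9 and 13 CPM in the cluster led by Pgf and Adm, and at 11.5 and 4.68 CPM in the cluster led by Klk10 and Mt1, while the other tumor-like clusters of at least 20 cells did not exceed 5.38 CPM, a Combo value above the 4.68 CPM of the Klk10 and Mt1 cluster, which rested on 10 UMIs. Mmp10 was highest in the Pgf and the Klk10 and Mt1 clusters, at 1.83 and 5.07 CPM and at 2.89 and 7.49 CPM. The value of 7.49 CPM rested on 16 UMIs in 5 of 71 cells. Adm encodes adrenomedullin, a vasodilator peptide, and Mt1 a metal-binding protein. Mmp2 had its lowest tumor-like levels in the Pgf cluster. A set of 218 and 133 cells was led by Aspn, Mgp and Dcn and received no name, since Dcn marks CAF-like cells. It had 5 of 7 tumor-like markers over 2-fold above the median of the named non-tumor clusters. Its mean log2 for CAF-like markers, 0.81, was below the naming limit of 1. The set held Mmp13 at 22.3 and 1.29 CPM (log2 -4.00, -5.84 to -2.73, from 29 and 5 UMIs) and Mmp2 at 178 and 217 CPM. It held Timp2 at 935 and 751 CPM and Timp3 at 0 and 1.55 CPM.

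**Figure D5:**
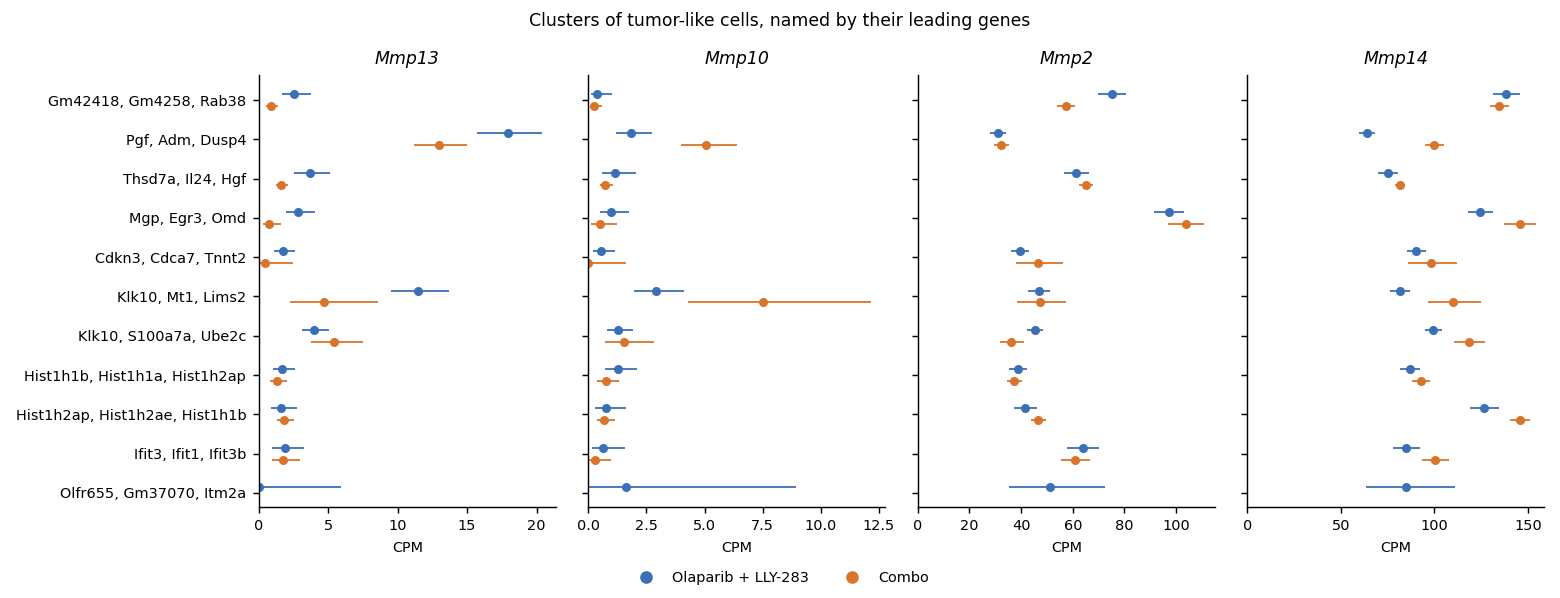
CPM with exact Poisson intervals of Mmp13, Mmp10, Mmp2 and Mmp14 in the clusters of tumor-like cells, named by leading genes and drawn where a library had at least 20 cells. Mmp13 was highest in the Pgf cluster, at 17.9 and 13 CPM.

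The 47 listed relatives of the members gave the surrounding pathway. Their leading classes were taken among classes of at least 20 cells in a library, so endothelial-like and DC-like cells were left out. Of 16 other metalloproteinases, 11 had UMIs in a leading class of both libraries, and 8 of these 11 had the same leading class in each. The same held for 6 of 6 other inhibitors, 8 of 9 activators and partners and 11 of 14 ADAM and ADAMTS proteases with UMIs in both. The plasminogen activator Plau was highest in macrophage-like cells (308 and 328 CPM), its receptor Plaur in neutrophil-like cells (947 and 1264 CPM), and its inhibitor Serpinb2 in CAF-like cells (615 and 532 CPM). Plasminogen itself, Plg, had no UMI. Furin, the convertase that opens pro-Mmp14, was highest in osteoclast-like cells (397 and 313 CPM), as was Mmp14. Lcn2, which binds Mmp9, was highest in neutrophil-like cells (450 and 637 CPM). Among the other metalloproteinases, Mmp11 was highest in CAF-like cells (35.6 and 15.4 CPM) and Mmp19 in monocyte-like cells (243 and 178 CPM). CAF-like cells also led for the plasminogen activator Plat (248 and 228 CPM) and for the matrix-cutting ADAMTS proteases Adamts1 (163 and 164 CPM), Adamts2 (341 and 228 CPM), Adamts4 (54.8 and 76.8 CPM), Adamts5 (560 and 384 CPM) and Adamts12 (50.6 and 57.7 CPM), as well as for Adam12 (91.7 and 94.6 CPM). Macrophage-like cells led for the sheddases Adam10 (127 and 131 CPM) and Adam17 (102.4 and 135.2 CPM), for Adam15 (181 and 231 CPM) and for Spp1, which encodes osteopontin (7345 and 6443 CPM). Cd44, a hyaluronan receptor, led in neutrophil-like cells (615 and 704 CPM) and Cav1, a protein of caveolae, in tumor-like cells (213 and 239 CPM). The leading class differed between the libraries for Bsg (1314 CPM in tumor-like and 1311 CPM in CAF-like cells), Adam8 (426 CPM in monocyte-like and 420 CPM in neutrophil-like cells) and Adam9 (93.1 CPM in CAF-like and 84.8 CPM in macrophage-like cells). Among relatives with at least 100 UMIs, 0 of 26 were called in tumor-like cells (2.04% of all genes) and 0 of 25 in CAF-like cells (1.9%). In neutrophil-like cells 1 of 11 was called (11.7%), in macrophage-like cells 1 of 15 (0.79%) and in T/NK-like cells 1 of 2 (6.56%), the last being Spp1 at 1335 and 4375 CPM. Mmp8, the neutrophil collagenase, named after its values were seen, was the one called in neutrophil-like cells, at 58.1 and 199 CPM (log2 1.75, 1.18 to 2.44), and in macrophage-like cells, at 6.73 and 16.2 CPM. In both classes its UMIs in the Olaparib + LLY-283 library alone lay below the minimum of 100.

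By Pearson correlation of log levels over 16 points, 8 classes in 2 libraries, the patterns nearest to Timp3 were those of Pcsk5 (0.99), Ccl11 (0.99) and Islr (0.98). Nearest to Mmp3 were Fbln1 (0.98), Cyp1b1 (0.97) and Tnn (0.97), and nearest to Mmp2 were Nbl1 (0.97) and Arhgap29 (0.94). The points share libraries and depth, and the 2 CAF-like points lie far from the rest for these members, so the values are descriptions.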

How the data were processed

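Single-cell suspensions from pooled tumors were profiled with the 10x Genomics 3′ chemistry. The authors deposited filtered matrices of UMI counts per gene and cell, aligned to mm10. The matrix headers name cellranger 6.1.2, and the submitters' processing notes list bcl2fastq 5.0.1 and Seurat 4.1.0. The features and barcodes files hold names only. Strand use in counting was not given in the sources used here.

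Barcodes needed 200 detected genes and a mitochondrial share below 20%, and 2364 and 125 cells with a Scrublet score over 0.2 were left out as doublets (14.7% and 2.10%). The rest were clustered in scanpy 1.11.5 (2000 variable genes without the members and relatives, 30 components, Leiden resolution 1.3). Clusters were named by markers. The rule for naming was chosen with the data in view. Of the clustered cells, 644 and 629 cells stayed without a name and 702 and 635 were set aside for low UMIs. The tumor-like class expressed 4 of its 7 markers over 2-fold above the other cells, and the CAF-like class 8 of 9. The members and lists were chosen with earlier results of these data known. All 10 members and, of the relatives, those with at least 1000 UMIs are named, except 1 that is not reported here. Plg, Mmp1b and Mmp8 fall outside that rule, and the genes nearest in pattern are given for 3 members.

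The matrices held 147214934 and 162522700 UMIs over all barcodes. UMI counts were summed per class and library. Intervals are exact Poisson (CPM), Clopper-Pearson (shares), exact conditional (ratios, 0.5 UMIs added) and Newcombe (differences of shares). They cover counting error, not differences between cells or mice. Alternatives in filters, clustering, naming, thinning and scaling were tried. The scripts were tested on simulated data.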

Additional observations from a re-analysis of the deposited data

How the results depend on the processing

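No paired analysis was possible because each treatment had 1 library. Mmp2, Mmp3, Mmp9 and Timp1 had the same leading class in each library under all 14 alternatives that could change it. The leading class of Mmp10 changed under 2 in Olaparib + LLY-283 and 6 in Combo, and that of Mmp13 under 7 and 1. For Mmp14 it changed under 1 and 3, and for Timp2 under 3 and 1. For Mmp12 and Timp3 it changed under 1 each, in Olaparib + LLY-283 only. Over the alternatives, the number of members with the same leading class in both libraries ranged from 6 to 10, and the number whose leading class by CPM also led by thinned share from 6 to 9. With each cell assigned by its own marker UMIs, 4 members had over 50% of their UMIs in tumor-like cells and 1 passed 2-fold in CAF-like cells. In macrophage-like cells 1 member passed 2-fold with doublets kept, 1 without the 5 richest cells (Mmp9), 1 without a filter on low counts and 1 with Scrublet's own thresholds (Mmp12, log2 -1.12), an alternative chosen after seeing the data. The macrophage-like Mmp12 ratio ranged from -1.12 to 0.43 over the alternatives, and was above 0 with doublets kept, at Leiden resolution 2.0 and by the mean over cells. Against -0.13 in the main setting, it was -0.58 with no mitochondrial limit and -0.65 under 10% mitochondrial UMIs. It was -0.73 at resolution 0.8, -0.62 with the members and relatives kept in the clustering, and -0.12 with 50 components. In CAF-like cells 1 member passed without the 5 richest cells (Timp3), 1 with at least 20 UMIs and 4 without a filter. In tumor-like cells 1 passed by the mean over cells (Mmp9) and 2 without the 5 richest cells, and in neutrophil-like cells 4 passed without a filter. Mmp9 in neutrophil-like cells passed 2-fold under each of the 17 alternatives computed for it, from 1.06 to 2.28. Those that only changed the UMI minimum could not alter its ratio. The causes of the changes in these counts and ratios were not tested. Of the other values recomputed, 354 moved by less than their interval and 70 by more. The 354 include values that a changed UMI minimum could not alter. The sign of a log2 ratio turned in 17 values for tumor-like cells, 14 for macrophage-like, 7 for CAF-like and 0 for neutrophil-like cells. With doublets kept, those of Mmp2 (0.87), Mmp3 (0.36), Timp1 (0.61) and Timp3 (0.86) in CAF-like cells turned above 0. Naming the clusters of low depth by their markers, also chosen after seeing the data, gave -0.73 for Mmp12 in macrophage-like cells. Precision is limited in small classes, with 26 osteoclast-like and 63 CAF-like cells in Combo and 31 neutrophil-like cells deep enough for thinning in Olaparib + LLY-283.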
